A study of Mus musculus with 33 samples.

Results

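The chemokine ligand genes were taken as every gene of the deposited expression table whose symbol begins with Ccl, Cxcl, Xcl or Cx3cl and continues with a number and at most 1 letter. This rule found 37 genes of 21671, made up of 22 Ccl, 13 Cxcl, 1 Xcl and 1 Cx3cl gene, and it used no measured value. The study sequenced total RNA from 33 livers and liver nodules of C57BL/6 mice to ask how MYC and beta-catenin act together in the liver. In its short-term arm, mice aged 6 to 8 weeks all received AAV8-TBG-CRE, a viral vector in which the hepatocyte-specific TBG promoter drives Cre recombinase, at 1e+11 particles, and livers were taken on day 4. These livers were wild type (5), carried the beta-cat Ex3 allele, from which Cre removes an exon to give a stable beta-catenin (Ex3, 5), carried R26-lslMYC, a MYC transgene that Cre switches on (MYC, 5), or carried both alleles (MYC+Ex3, 5). Wild-type livers of this arm thus had the virus and Cre as well. In the tumour arm, nodules came from mice with Alb-CreERT2, a tamoxifen-dependent Cre expressed in hepatocytes, together with R26-lslMYC (3 MYC tumours) or with both alleles (3 MYC+Ex3 tumours), and the controls were 7 wild-type livers taken 4 days after intraperitoneal 4-hydroxytamoxifen (4-OHT). The labels give neither the age of the tumour mice nor a Cre allele for the 4-OHT livers, and they do not say whether nodules came from different animals. Tumours and 4-OHT livers therefore also differ in growth time, and nodules were not compared with the liver around them.

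Chemokines are small secreted proteins that bind G protein-coupled receptors and guide the movement of white blood cells. They are classed by the spacing of their first cysteines into CC (Ccl), CXC (Cxcl), XC (Xcl) and CX3C (Cx3cl) ligands. In the liver they are made by Kupffer cells, which are the resident macrophages, by endothelial and stellate cells and by hepatocytes, and many of the inflammatory ones are switched on by NF-kappa-B or by interferon signalling.

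All 37 symbols were found in the RefSeq table of assembly GRCm38.p6, with 12 genes on chromosome 11, 11 on chromosome 5, 4 each on chromosomes 4 and 8, 2 each on chromosomes 1 and 13, and 1 each on chromosomes 6 and 7. Ccl2, Ccl7, Ccl11, Ccl12, Ccl8 and Ccl1 lie next to each other with 0 protein-coding genes between them, as do Ccl5, Ccl9, Ccl6, Ccl3 and Ccl4. Ccl3 and Ccl4 overlap in that annotation, and the strand setting of the counting is not given in the sources used here, so the division of reads between them is uncertain. Ccl27a and Ccl27b are near-identical copies, as is Ccl21c with other Ccl21 genes, so reads of these genes may be split or lost. RefSeq annotates Cxcl11 as a transcribed pseudogene in this strain's assembly, and its values below are RNA levels only.

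Promoters are shown for 5 members described in detail in the results: Cxcl9 and Cxcl10, which are ligands of the same receptor, Ccl6 and Ccl9, which are adjacent genes, and Cxcl12, the member with the most reads. Each sequence is the 250 bases before the annotated start on the gene's own strand, from the RefSeq promoter table of GRCm38.p6. Capitals mark matches on either strand to the letters of an interferon-stimulated element core (GAAANNGAA), a kappa-B core (GGANNTTCC), a gamma-activated site (TTCNNNGAA), an E-box (CACGTG), a TCF/LEF core (CTTTGNT) or a TATA box (TATAAA).
Cxcl10: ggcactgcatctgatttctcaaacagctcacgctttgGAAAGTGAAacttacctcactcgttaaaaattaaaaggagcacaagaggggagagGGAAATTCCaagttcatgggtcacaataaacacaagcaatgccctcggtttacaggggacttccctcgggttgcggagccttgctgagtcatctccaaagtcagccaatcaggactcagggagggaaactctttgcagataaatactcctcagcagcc
Cxcl9: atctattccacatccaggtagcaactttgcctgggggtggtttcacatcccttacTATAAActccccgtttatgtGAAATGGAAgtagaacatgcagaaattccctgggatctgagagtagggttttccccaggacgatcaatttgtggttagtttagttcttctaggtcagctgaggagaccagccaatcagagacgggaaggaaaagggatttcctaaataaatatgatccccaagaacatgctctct
Ccl6: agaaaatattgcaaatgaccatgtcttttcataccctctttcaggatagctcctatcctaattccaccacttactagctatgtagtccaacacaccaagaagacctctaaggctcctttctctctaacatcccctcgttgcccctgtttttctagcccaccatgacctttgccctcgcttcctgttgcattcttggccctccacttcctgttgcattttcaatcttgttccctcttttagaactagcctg
Ccl9: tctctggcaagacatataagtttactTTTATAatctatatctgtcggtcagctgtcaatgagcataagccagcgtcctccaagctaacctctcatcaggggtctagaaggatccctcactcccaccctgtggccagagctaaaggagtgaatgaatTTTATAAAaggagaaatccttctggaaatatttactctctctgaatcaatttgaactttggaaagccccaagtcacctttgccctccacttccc
Cxcl12: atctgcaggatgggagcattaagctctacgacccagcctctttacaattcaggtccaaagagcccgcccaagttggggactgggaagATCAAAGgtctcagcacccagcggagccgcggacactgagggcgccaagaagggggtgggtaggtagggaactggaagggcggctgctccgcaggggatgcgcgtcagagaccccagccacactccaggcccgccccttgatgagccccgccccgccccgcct
The Cxcl10 window lies at chr5:92348890-92349139, minus strand, and holds an interferon-stimulated element core 213 bases before the start and a kappa-B core 158 bases before it, the latter matching on both strands. The Cxcl9 window, at chr5:92328080-92328329, minus strand, holds an interferon-stimulated element core 175 bases before the start, preceded by a TATA box at 195 bases. It has no match to the kappa-B letters searched. No searched motif was found in the Ccl6 window (chr11:83593088-83593337, minus strand), while the Ccl9 window (chr11:83578637-83578886, minus strand) has TATA boxes at 224, 94 and 92 bases, the last pair overlapping on opposite strands. The Cxcl12 window (chr6:117168285-117168534, plus strand) has 1 TCF/LEF core at 163 bases, on the minus strand. Among all 32851 promoters of the table the share with a match was 7.13% for the interferon-stimulated element core, 3.59% for the kappa-B core, 7.02% for the gamma-activated site, 6.02% for the E-box, 16% for the TCF/LEF core and 12.4% for the TATA box. The table held 31 promoters of 25 members, of which 6 matched the interferon-stimulated element core, 6 the kappa-B core, 2 the gamma-activated site, 1 the E-box, 5 the TCF/LEF core and 10 the TATA box. The kappa-B matches were in Cxcl1, Cxcl2, Cxcl3, Cxcl10, Ccl1 and Ccl12. A match is only a run of letters, other forms of these motifs were not searched, and no binding was measured.

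The values are reads scaled to gene length and library total (RPKM). Reads in genes numbered 3.75 to 7.31 M per library in the short-term arm and 6.65 to 9.82 M in the tumour arm. The RPKM scale differed between the arms, with the highest value of any gene between 220.3 and 395.5 in short-term livers but between 42.9 and 67.5 in the tumour arm, so levels were compared only within an arm. Axin2, a beta-catenin target, was at 10.6 to 24.9 RPKM in Ex3 and 7.49 to 24.3 RPKM in MYC+Ex3 livers against 2.73 to 4.30 RPKM in wild type. Ncl, a MYC target, was at 41.2 to 98.3 RPKM in MYC and 52.5 to 66.6 RPKM in MYC+Ex3 livers against 15.3 to 24.2 RPKM in wild type. In the tumour arm Ncl was at 15.2 to 20.8 RPKM in all tumours against 3.97 to 5.95 RPKM in 4-OHT livers, and Axin2 at 7.63 to 11.3 RPKM in MYC+Ex3 tumours against 0.0946 to 0.66 RPKM in MYC tumours. The hepatocyte list (Alb, Ttr, Apoa1, Cps1, Cyp3a11, Hnf4a) was present in every library, with summed levels of 900.6 to 1520 RPKM in short-term livers and 165.5 to 280.1 RPKM in the tumour arm. Of the short-term libraries, 10 carried RNA of the epidermal keratins Krt5, Krt14 and Krt17 at a summed level above 1 RPKM. They made up 3 livers of each group except MYC, which had 1, and no library of the tumour arm. With the groups kept in the fit, 25.9% of 13688 genes differed between keratin-bearing and keratin-free libraries, and of the members 5 of 23 did. Cxcl1 was higher in the keratin-bearing livers, at 65.0 against 35.5 RPKM on average (log2 difference 1.32, SE 0.35, adjusted p = 0.0108), and Ccl22, Ccl24, Ccl25 and Ccl27a were lower, with log2 differences between -0.68 and -0.44. Results of the short-term arm are therefore also given within these sets of libraries, and no value within the keratin-bearing set can be had for MYC livers, since it holds 1 of them.

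Of the 37 genes, 11 were above 1 RPKM in all 20 short-term livers: Ccl2, Ccl6, Ccl9, Ccl24, Ccl25, Ccl27a, Cxcl1, Cxcl9, Cxcl10, Cxcl12 and Cxcl16. In the tumour arm 6 were above 1 RPKM in all 13 libraries: Ccl6, Ccl9, Cxcl1, Cxcl10, Cxcl12 and Cxcl16. A further 12 genes reached 1 RPKM in at least 3 short-term livers without reaching it in all (Ccl3, Ccl4, Ccl5, Ccl7, Ccl8, Ccl22, Cxcl2, Cxcl11, Cxcl13, Cxcl14, Cxcl17, Xcl1), which made 23 genes that could be tested there. The tumour arm had 13 testable genes, all of them among those 23. In wild-type livers of the short-term arm the highest means were those of Cxcl1 (80.5 ± 90.9 RPKM, SD, n = 5), Cxcl12 (57.8 ± 14.6 RPKM), Ccl9 (51.0 ± 5.34 RPKM), Ccl6 (24.1 ± 10.5 RPKM), Cxcl9 (18.4 ± 6.17 RPKM) and Cxcl16 (13.6 ± 4.06 RPKM). The spread of Cxcl1 covers that of the next members, so the order of Cxcl1, Cxcl12 and Ccl9 cannot be told from these levels, whereas every value of Ccl9 (46.0 to 57.4 RPKM) lay above every value of Ccl6 (9.85 to 39.0 RPKM). The other 14 genes reached 1 RPKM in at most 2 livers of the short-term arm and at most 1 library of the tumour arm. Ccl19, Ccl21c and Ccl27b had no reads in any library, which allows up to 3 reads per library, Ccl1, Ccl26, Cxcl3 and Cxcl15 stayed below 1 RPKM throughout, and Ccl11, Ccl12, Ccl17, Ccl20, Ccl28, Cx3cl1 and Cxcl5 passed it in 1 or 2 livers.

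**Figure D1:**
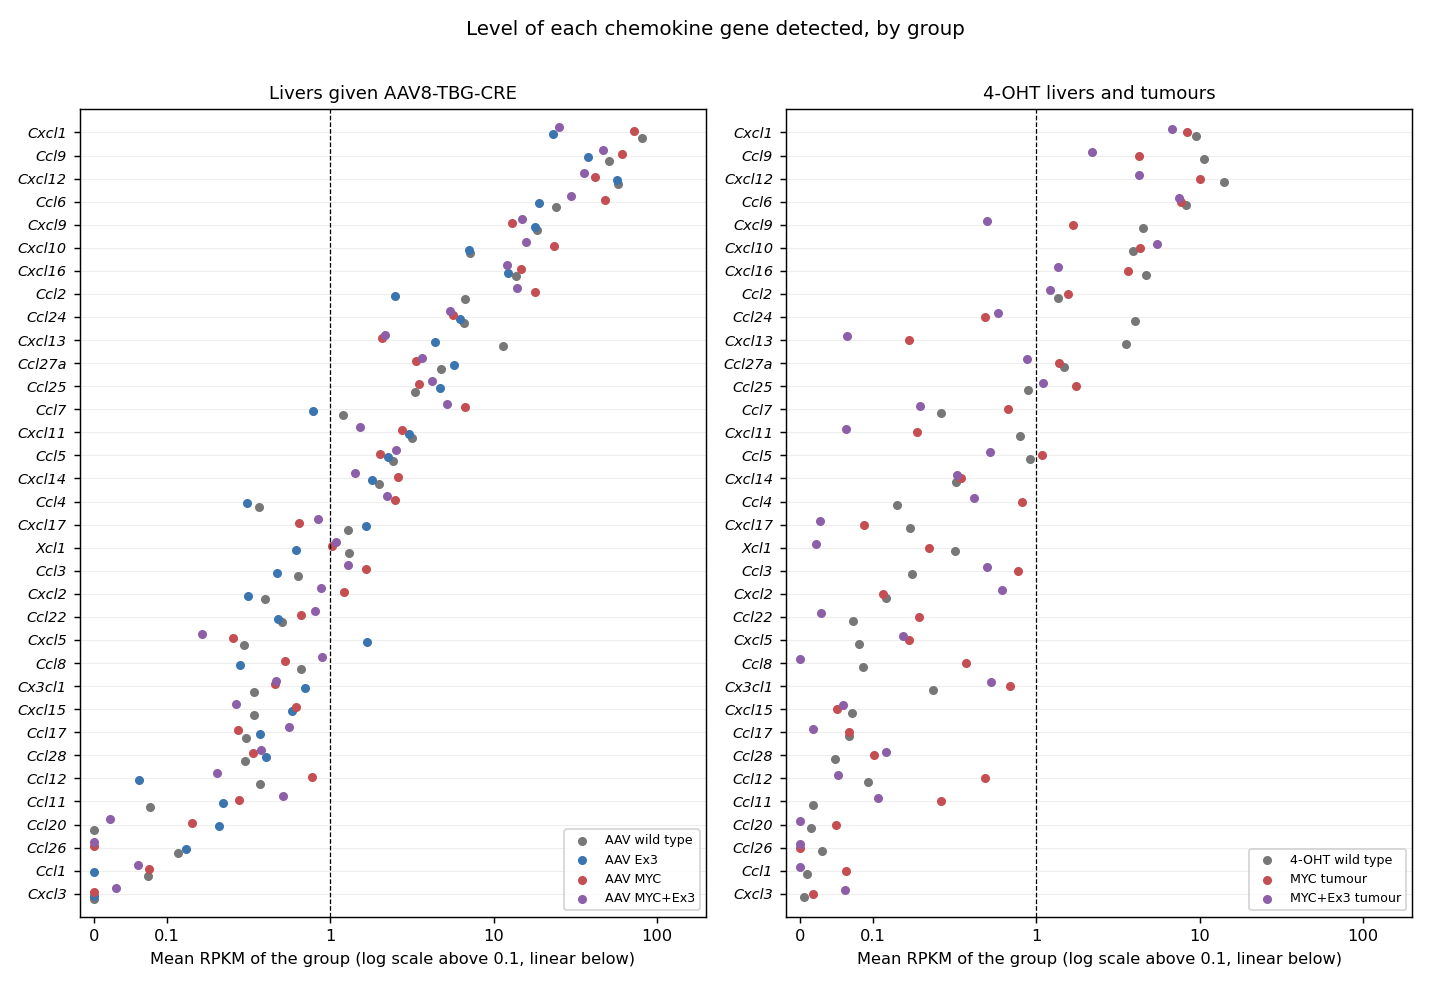
Mean RPKM of the 34 detected chemokine ligand genes in each group (log axis), with the short-term AAV8-TBG-CRE livers in one panel and the tumour arm in the other; the dashed line is 1 RPKM and each point is the mean of a group (5 livers per short-term group, 7 4-OHT livers, 3 tumours per genotype). Cxcl1, Cxcl12, Ccl9 and Ccl6 have the highest means over each arm, and the scales of the panels are not comparable.

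The Ex3 allele alone moved no chemokine ligand past the test. Differences were tested with limma on log2(RPKM + 1), two-sided, with Benjamini-Hochberg adjustment over all genes and calls at an adjusted p under 0.05. On this scale the change of low genes is understated. Of 23 members 0 were called in Ex3 against wild-type livers by limma, where 0.132% of 13688 genes were, and 3 members had an unadjusted p under 0.05. Ccl9, a macrophage-made ligand of CCR1, read 57.4, 55.8, 49.0, 46.0 and 46.4 RPKM in wild-type livers and 39.3, 39.5, 41.3, 42.0 and 26.8 RPKM in Ex3 livers. The groups did not overlap, but the difference of -0.43 (SE 0.14) had an adjusted p of 0.515. Cxcl1 was lower in Ex3 livers by 1.3 (SE 0.60) with an adjusted p of 0.907. This Cxcl1 difference was -0.30 within the keratin-free livers and -1.96 within the keratin-bearing livers (adjusted p = 1 and 0.371). Ccl2, at 1.28 to 3.69 RPKM against 2.78 to 14.8 RPKM, was the third with an unadjusted p under 0.05 (log2 difference -1.02). The median log2 difference was -0.09 over the members and 0.02 over all genes tested.

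MYC livers had higher levels of 6 chemokine ligands and a lower level of 1, among 23 tested. The 6 were Ccl2, Ccl3, Ccl4, Ccl6, Ccl7 and Cxcl10, 5 of which are inflammatory CC ligands out of 9 such genes tested, and the 1 was Cxcl13. Ccl4 was above 1 RPKM only in 4 MYC and 4 MYC+Ex3 livers, so it entered the test through groups where it was called higher. Ccl3 nearly did so, being above 1 RPKM in 1 wild-type, 4 MYC and 3 MYC+Ex3 livers. Counts of members called, here and for MYC+Ex3 livers, carry this limit. Over all 13688 genes 22.3% were called, 16.9% higher and 5.36% lower, so the members' share was not far from that of all genes. The medians over members and over all genes were 0.11 and 0.07. In these pieces of whole liver, more cells of a type and more RNA per cell cannot be told apart, here and in the results that follow.

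Ccl2 and Ccl7 are neighbouring genes whose proteins attract monocytes through CCR2. Ccl7 read 0.465, 0.562, 0.413, 2.83 and 1.71 RPKM in wild-type livers, and 7.14, 3.09, 5.41, 15.2 and 2.80 RPKM in MYC livers. All but 1 MYC liver lay above the highest wild-type liver, and the difference was 1.72 (SE 0.35, adjusted p = 0.00117). Ccl7 read 3.24, 5.47, 3.34, 5.16 and 8.57 RPKM in MYC+Ex3 livers, all above wild type, with a difference of 1.54 (SE 0.35, adjusted p = 0.00261). In Ex3 livers it read 0.930, 1.03, 0.846, 0.518 and 0.592 RPKM, so MYC+Ex3 livers also exceeded all Ex3 livers (1.73, SE 0.35, adjusted p = 0.00113). Within the keratin-free livers the Ccl7 difference was 1.89 for MYC (adjusted p = 0.00543) and 1.86 for MYC+Ex3 against wild type (adjusted p = 0.00637), and within the keratin-bearing livers it was 1.33 for MYC+Ex3 (adjusted p = 0.0327).

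Ccl2 itself read 5.53, 2.78, 5.11, 14.8 and 5.10 RPKM in wild-type livers and 31.2, 6.75, 13.6, 29.8 and 8.90 RPKM in MYC livers. The groups overlapped through 1 high wild-type liver, and the difference was 1.25 (SE 0.42, adjusted p = 0.0393). This call was lost within the keratin-free livers (1.12, adjusted p = 0.15), under most other settings and without wild-type replicate 1, 2, 3 or 5 or MYC replicate 1, 3 or 4, with adjusted p of 0.0504 to 0.12. In MYC+Ex3 livers Ccl2 read 14.3, 16.4, 5.95, 8.76 and 24.2 RPKM, which was not called against wild type (0.99, SE 0.42, adjusted p = 0.0949). Against Ex3 livers, at 3.46, 3.69, 2.23, 1.28 and 1.76 RPKM, the same livers were all higher, by 2.01 (SE 0.42, adjusted p = 0.00176), and the call was kept within the keratin-free (1.84, adjusted p = 0.0343) and the keratin-bearing livers (2.13, adjusted p = 0.0378).

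Ccl3 and Ccl4 encode the macrophage inflammatory proteins, which attract white blood cells. Ccl4 rested on few reads, at 0 to 2 per wild-type or Ex3 liver and 2 to 14 per MYC or MYC+Ex3 liver. It read 0.281, 0, 0.25, 0.623 and 0.692 RPKM in wild-type livers, 2.88, 0.499, 3.10, 4.67 and 1.36 RPKM in MYC livers, and 2.31, 2.90, 0.808, 3.27 and 1.89 RPKM in MYC+Ex3 livers. MYC+Ex3 livers lay above wild type without overlap and all but 1 MYC liver did. The differences were 1.24 (SE 0.30, adjusted p = 0.00549) for MYC, 1.21 (SE 0.30, adjusted p = 0.00594) for MYC+Ex3 against wild type and 1.28 (SE 0.30, adjusted p = 0.00433) for MYC+Ex3 against Ex3, and they depend on the pseudocount at such low counts. Within the keratin-free livers Ccl4 differed by 1.5 for MYC+Ex3 (adjusted p = 0.0304) and by 1.11 for MYC (adjusted p = 0.0907). Ccl3 read 0.242, 0.146, 0.429, 1.47 and 0.892 RPKM in wild-type livers and 2.23, 1.18, 1.78, 2.58 and 0.486 RPKM in MYC livers. That overlap left a difference of 0.69 (SE 0.24, adjusted p = 0.0444), which did not hold within the keratin-free livers (0.80, adjusted p = 0.131) and was kept in only 6 of the 20 fits that left out 1 liver (adjusted p up to 0.129, without MYC replicate 4).

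Ccl6, a CCR1 ligand of macrophages, read 26.8, 9.85, 22.3, 39.0 and 22.4 RPKM in wild-type livers and 34.3, 21.2, 58.8, 72.2 and 54.9 RPKM in MYC livers. The groups overlapped, and the difference of 0.98 (SE 0.35) was at the edge of the threshold, with an adjusted p of 0.0497. It was kept in 3 of the 20 fits that left out 1 liver, with adjusted p up to 0.147 (without wild-type replicate 2), and was not called within the keratin-free livers (0.66, adjusted p = 0.255). Its neighbour Ccl9 read 64.5, 63.5, 67.8, 66.8 and 43.7 RPKM in MYC livers and 43.1, 45.6, 39.8, 55.9 and 49.3 RPKM in MYC+Ex3 livers, and was called in neither. The remaining inflammatory CC ligands tested, Ccl5, Ccl8 and Ccl24, were not called in any short-term comparison. Ccl5, a T cell attractant, had means of 2.42 ± 1.15, 2.25 ± 1.45, 2.03 ± 1.37 and 2.52 ± 1.62 RPKM (SD, n = 5 each) in wild-type, Ex3, MYC and MYC+Ex3 livers. Ccl24, an eosinophil attractant, had 6.61 ± 3.17, 6.21 ± 1.81, 5.65 ± 2.20 and 5.44 ± 3.10 RPKM in the same order. Ccl8 stayed at 0.282 to 0.887 RPKM on average.

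Cxcl9, Cxcl10 and Cxcl11 attract T and NK cells through CXCR3 and are classed as interferon-inducible. Their changes were not tested against each other. Cxcl10 read 5.39, 4.24, 7.34, 10.8 and 7.86 RPKM in wild-type livers and 21.7, 7.34, 14.4, 51.2 and 22.8 RPKM in MYC livers. All but 1 MYC liver lay above all wild-type livers, a difference of 1.39 (SE 0.36, adjusted p = 0.00905). Within the keratin-free livers the difference was 1.15 (adjusted p = 0.0787). MYC+Ex3 livers, at 16, 14.8, 7.20, 26.9 and 14.2 RPKM, differed from wild type by 0.997 with an adjusted p of 0.0518 in limma, just outside the threshold. In the authors' deposited table Cxcl10 was called higher there, with a log2 fold change of 0.95 and an adjusted p of 0.00554. Cxcl9, 1 protein-coding gene away, read 18.6, 11.1, 19.1, 15.5 and 27.9 RPKM in wild-type livers, and 11.4, 10.6, 18.9, 9.32 and 14.7 RPKM in MYC livers, and was not called (-0.46, SE 0.26, adjusted p = 0.22). Cxcl11 was called only in MYC+Ex3 livers, where it was lower, at 1.35, 1.12, 0.674, 2.11 and 2.36 RPKM against 3.75, 3.26, 2.92, 2.21 and 3.60 RPKM in wild type. The groups overlapped by 1 liver each, the difference was -0.75 (SE 0.24, adjusted p = 0.0273), and within the keratin-bearing livers it was -0.62 (adjusted p = 0.25), within the keratin-free -0.95 (adjusted p = 0.0352). Leaving out wild-type replicate 1, 2 or 5 or MYC+Ex3 replicate 1, 2 or 3 ended the call, with adjusted p up to 0.0711.

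Cxcl12, the ligand of CXCR4 that holds white blood cells in tissues and marrow, was the member with the most reads. It read 49.8, 81.7, 59.9, 43.6 and 54.2 RPKM in wild-type livers and 32.9, 31.3, 31.9, 40.3 and 43.3 RPKM in MYC+Ex3 livers, which did not overlap. The fall was -0.65 (SE 0.23, adjusted p = 0.0456) against wild type and -0.65 (SE 0.23, adjusted p = 0.0492) against Ex3 livers, at 57.6, 48.9, 61.7, 56.6 and 59.2 RPKM. Both calls lie at the threshold and were kept in 5 and 4 of the 20 fits that left out 1 liver. Without wild-type replicate 2 the first became -0.52 with an adjusted p of 0.124, and without MYC+Ex3 replicate 2 the other had an adjusted p of 0.11. Within the keratin-free livers the differences were -0.75 (adjusted p = 0.0346) and -0.71 (adjusted p = 0.0504), and within the keratin-bearing livers -0.59 (adjusted p = 0.0799) and -0.62 (adjusted p = 0.0848). MYC livers read 39.0, 41.7, 45, 17.5 and 64.9 RPKM and were not called (-0.54, SE 0.23, adjusted p = 0.0984), but became so after the rescaling described below.

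Cxcl13, the B cell attractant that binds CXCR5, read 6.08, 1.35, 15.5, 25.1 and 9.43 RPKM in wild-type livers, 1.15, 2.98, 4.31, 0.190 and 1.80 RPKM in MYC livers, and 1.18, 0.353, 2.06, 0.506 and 6.79 RPKM in MYC+Ex3 livers. The groups overlapped through the low wild-type replicate 2 and the high MYC+Ex3 replicate 5. Cxcl13 fell by 1.79 (SE 0.55, adjusted p = 0.0231) in MYC and by 1.89 (SE 0.55, adjusted p = 0.0156) in MYC+Ex3 livers, comparisons that share the wild-type livers. Within the keratin-free livers it fell by 1.69 (adjusted p = 0.0324) and 2.65 (adjusted p = 0.00444), and within the keratin-bearing livers the MYC+Ex3 difference was -1.39 (adjusted p = 0.286). The MYC call was lost without wild-type replicate 3 or 4 or MYC replicate 1 or 4, with adjusted p up to 0.0757, and the MYC+Ex3 call without wild-type replicate 4 or MYC+Ex3 replicate 2, with adjusted p up to 0.0516. Ex3 livers read 2.85 to 6.41 RPKM, and MYC+Ex3 against Ex3 was not called (-1.04, adjusted p = 0.192).

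Cxcl16, the membrane-bound ligand of CXCR6, was level across the short-term groups, with means of 13.6 ± 4.06, 12.3 ± 2.64, 14.7 ± 1.07 and 12.1 ± 3.23 RPKM (SD, n = 5 each) in wild-type, Ex3, MYC and MYC+Ex3 livers and no call. Cxcl14 (1.42 to 2.60 RPKM on average) and Cxcl17 (0.642 to 1.65 RPKM) were not called either.

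**Figure D2:**
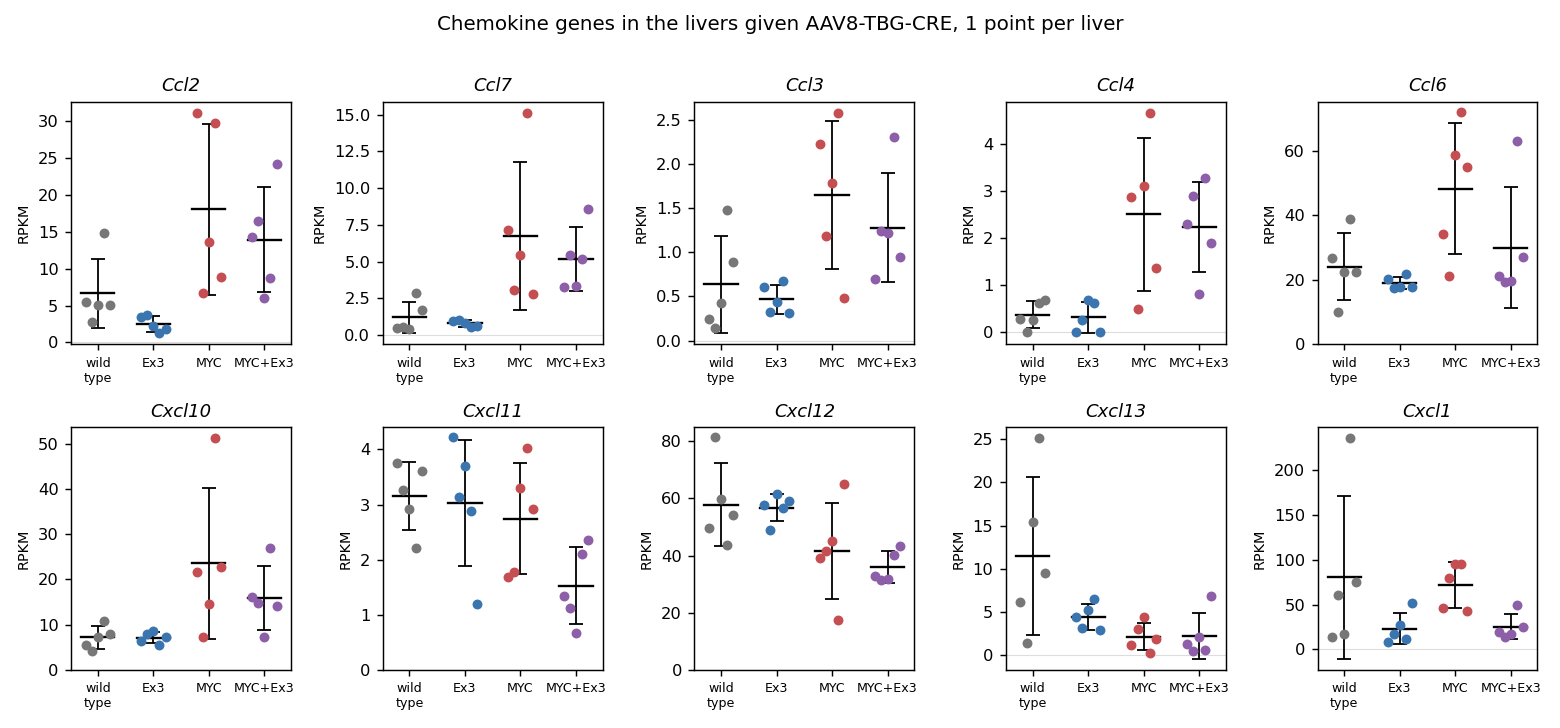
RPKM of 10 chemokine ligand genes in the 20 short-term livers by group, 1 point per liver with the mean and SD (n = 5 per group). Ccl7 and Ccl4 are higher in all MYC+Ex3 livers than in all wild-type livers, Cxcl12 is lower in all of them, and Cxcl1 reaches 236 RPKM in 1 wild-type liver.

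Among the neutrophil attractants, which bind CXCR2, neither of the 2 tested (Cxcl1 and Cxcl2) was called by limma in any short-term comparison. Cxcl1 spread widely in wild-type livers, at 13.5, 60.5, 17.2, 236 and 75.3 RPKM, and read 46.7, 79.8, 95, 95.6 and 43.1 RPKM in MYC livers. MYC+Ex3 livers, at 19.7, 13.8, 17.7, 49.2 and 25.4 RPKM, were lower than MYC livers at an unadjusted p of 0.0178, with a difference of -1.54 and an adjusted p of 1 in limma. The authors' deposited table called Cxcl1 lower in this comparison, with a log2 fold change of -0.757 and an adjusted p of 0.0133. Cxcl2 was near the filter, with means of 0.397 ± 0.362 RPKM in wild-type livers, 1.21 ± 0.609 RPKM in MYC livers (SD, n = 5 each) and an adjusted p of 0.0519 for a difference of 0.65 (SE 0.23). The homeostatic ligands Ccl22, which attracts regulatory T cells through CCR4, Ccl25, which binds CCR9, and Ccl27a, which binds CCR10, had means of 0.480 to 0.810, 3.31 to 4.69 and 3.37 to 5.74 RPKM over the groups and no call. Xcl1, the ligand of XCR1 on cross-presenting dendritic cells, had 0.619 to 1.3 RPKM on average and no call.

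In all, MYC+Ex3 livers differed from wild type in 5 of 23 members (Ccl4 and Ccl7 higher; Cxcl11, Cxcl12 and Cxcl13 lower), where 24.1% of all genes were called, 17.9% higher and 6.18% lower. Against Ex3 livers they differed in 4 (Ccl2, Ccl4 and Ccl7 higher; Cxcl12 lower), where 21.1% of genes were called, 16.4% higher and 4.7% lower. The medians over members were -0.12 and 0.24 and those over all genes 0.05 and 0.03. No member was called between MYC+Ex3 and MYC livers by limma, where 0.19% of genes were, although 3 had an unadjusted p under 0.05 (Cxcl1, Ccl9 and Cxcl11). The interaction of MYC and Ex3 was called for 0% of genes by limma, with 132 genes and 0 members at an unadjusted p under 0.05. No difference between the MYC effect with and without Ex3 was thus detected for any member. MYC and MYC+Ex3 livers were compared with the same wild-type livers, so their calls are not independent.

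After each library was rescaled by the median ratio over genes, the calls of MYC against wild-type livers numbered 5. Ccl4, Ccl7, Cxcl10 and Cxcl13 were kept, Ccl2, Ccl3 and Ccl6 were lost, with adjusted p between 0.0518 and 0.0712, and Cxcl12 was gained as lower (-0.65, adjusted p = 0.0476). The split of all genes called moved from 2313 higher and 734 lower to 1869 higher and 1334 lower. For MYC+Ex3 the same 5 members stayed called against wild type, while all genes moved from 2455 higher and 846 lower to 2031 and 1353. Against Ex3 livers Cxcl11 was gained, and all genes moved from 2249 higher and 644 lower to 1911 and 1038. No called member changed direction. By Xist and Ddx3y, 2 of 5 wild-type, 3 of 5 MYC and 4 of 5 MYC+Ex3 livers were male, and with sex as a covariate Ccl2, Ccl3 and Ccl6 were no longer called in MYC livers, nor Cxcl11 and Cxcl12 in MYC+Ex3 against wild-type livers.

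The receptors and inducers were described beside the ligands. Of 24 receptor genes 17 could be tested in the short-term arm. Ccr2, the receptor of Ccl2 and Ccl7 on monocytes, was higher in MYC livers, at 8.76 ± 2.86 against 4.38 ± 1.07 RPKM (SD, n = 5 each; log2 difference 0.83, SE 0.26, adjusted p = 0.024). Cxcr4, the receptor of Cxcl12, was higher by 0.90 (SE 0.28, adjusted p = 0.0268) and Ccrl2 by 0.67 (SE 0.20, adjusted p = 0.0223). Ackr4, a scavenger that removes Ccl25 and other ligands, was lower by -0.56 (SE 0.16, adjusted p = 0.0185). In MYC+Ex3 livers the scavengers Ackr1 (-0.71) and Ackr2 (-0.71) were lower than in wild type, with adjusted p of 0.033 and 0.0432, and Ackr4 was lower than in Ex3 livers (-0.56, adjusted p = 0.0181). Of 13 inducer genes (Tnf, the interleukins 1 and 6, interferon gamma, NF-kappa-B subunits and their targets, and interferon-signalling genes such as Irf1), 11 were tested and 0 were called in MYC livers. Irf1, an interferon-induced transcription factor, was lower in MYC+Ex3 than in wild-type (-0.43, SE 0.12, adjusted p = 0.00909) and Ex3 livers (-0.41, SE 0.12, adjusted p = 0.0154), and Tnf was higher than in Ex3 livers (0.83, SE 0.24, adjusted p = 0.0192).

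Markers of white blood cells beside the higher CC ligands were read from marker lists. In MYC livers 1 of 5 monocyte markers (Ccr2) was called higher, with the list summing to 27.9 to 113 RPKM against 21.9 to 78.1 RPKM in wild type, and 0 of 9 Kupffer cell and 0 of 5 neutrophil markers were called. The Kupffer cell list summed to 532.1 to 788.7 RPKM in MYC and 379 to 724.3 RPKM in wild-type livers, with no marker at 0. Beside the lower Cxcl13 of MYC livers, 1 of 7 endothelial markers was lower (Kdr, -0.80, adjusted p = 0.0235), with the list at 117 to 235.5 RPKM against 178.8 to 304.0 RPKM in wild type. Of 7 stellate or fibroblast markers there, Reln was lower (-0.91, adjusted p = 0.0181) and Col1a1 higher, with sums of 128.5 to 201.2 against 184.5 to 198.5 RPKM. Beside the lower Cxcl12 and Cxcl13 of MYC+Ex3 livers, the endothelial list summed to 119.7 to 231.8 RPKM in MYC+Ex3 and 178.8 to 304.0 RPKM in wild-type livers with 0 of 7 markers called, and the stellate or fibroblast list to 98.8 to 198.4 against 184.5 to 198.5 RPKM with Col1a1 higher and Dcn and Lrat lower among 7. Of 4 B cell markers 0 were called by limma in either. The part of these cells in the chemokine results was not tested.

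Among the members tested, the picture in the tumours was mostly of lower levels. MYC tumours had 5 of 13 testable members below the 4-OHT wild-type livers and 1 above, and MYC+Ex3 tumours had 7 of 13 below and 0 above. Ccl9, Ccl24, Cxcl9, Cxcl12 and Cxcl13 were lower in both genotypes, Ccl25 was higher in MYC tumours, and Cxcl16 and Ccl27a were lower in MYC+Ex3 tumours. Over all 11854 genes 49.8% were called in MYC tumours, 36.2% higher and 13.7% lower. In MYC+Ex3 tumours 60.6% were, 42.3% higher and 18.4% lower. The members' share called in all was near or below these, and their share called lower was above, a difference that was not tested. It cannot be read as a trait of the family, since the filter favours genes that are high in the 7 livers. Cxcl13 was above 1 RPKM in livers only. Ccl24 (7 livers, 1 MYC and 1 MYC+Ex3 tumour) and Cxcl9 (7 livers and 2 MYC tumours) also passed the filter only with the livers, where they were high. The members found higher below the filter, given later, are not counted. The medians over members were -0.28 and -0.40, and those over all genes 0.19 and 0.23. Tumours of both genotypes were compared with the same 7 livers.

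Cxcl12 separated the 3 groups completely. It read 15.3, 11.9, 14.2, 11.9, 16.4, 15 and 14.2 RPKM in 4-OHT livers, 10.1, 11.3 and 8.77 RPKM in MYC tumours and 4.21, 4.96 and 3.50 RPKM in MYC+Ex3 tumours. It fell by 0.45 (SE 0.13, adjusted p = 0.00907) in MYC tumours and by 1.53 (SE 0.13, adjusted p = 4.31e-07) in MYC+Ex3 tumours, and MYC+Ex3 tumours were below MYC tumours by -1.08 (SE 0.15, adjusted p = 0.000713). The smaller difference was not called against the 4 4-OHT livers whose titles begin their number with S14 (the other 3 have S15, with no meaning given) (-0.38, adjusted p = 0.0638) or without MYC tumour replicate 3 (adjusted p = 0.0607).

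Cxcl16 read 5.05, 4.70, 4.73, 5.18, 4.03, 4.87 and 4.03 RPKM in 4-OHT livers, 2.30, 4.46 and 4.21 RPKM in MYC tumours and 1.21, 1.5 and 1.39 RPKM in MYC+Ex3 tumours. All MYC+Ex3 tumours lay below all other libraries, by -1.25 against 4-OHT livers (SE 0.14, adjusted p = 5.32e-06) and by -0.94 against MYC tumours (SE 0.17, adjusted p = 0.0047). A fit of only the tumours did not call the latter (adjusted p = 0.161). MYC tumours overlapped the livers and were not called (-0.31, SE 0.14, adjusted p = 0.0804). Cxcl12 and Cxcl16 were the 2 members called between the tumour genotypes, both lower with Ex3, where 4.13% of all genes were called, 2.02% higher and 2.1% lower, and 6 members had an unadjusted p under 0.05.

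Cxcl13 was close to 0 in tumours, at 0, 0.332 and 0.163 RPKM in MYC tumours and 0.0237, 0.0864 and 0.0836 RPKM in MYC+Ex3 tumours, against 2.72, 3.28, 2.33, 7.78, 2.78, 4.01 and 1.91 RPKM in 4-OHT livers. That is 0 to 15 reads per tumour against 81 to 330 per liver. On the log2(RPKM + 1) scale it fell by 1.88 (SE 0.25, adjusted p = 5.54e-05) and 2 (SE 0.25, adjusted p = 1.49e-05). These differences are bounded by the pseudocount.

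**Figure D3:**
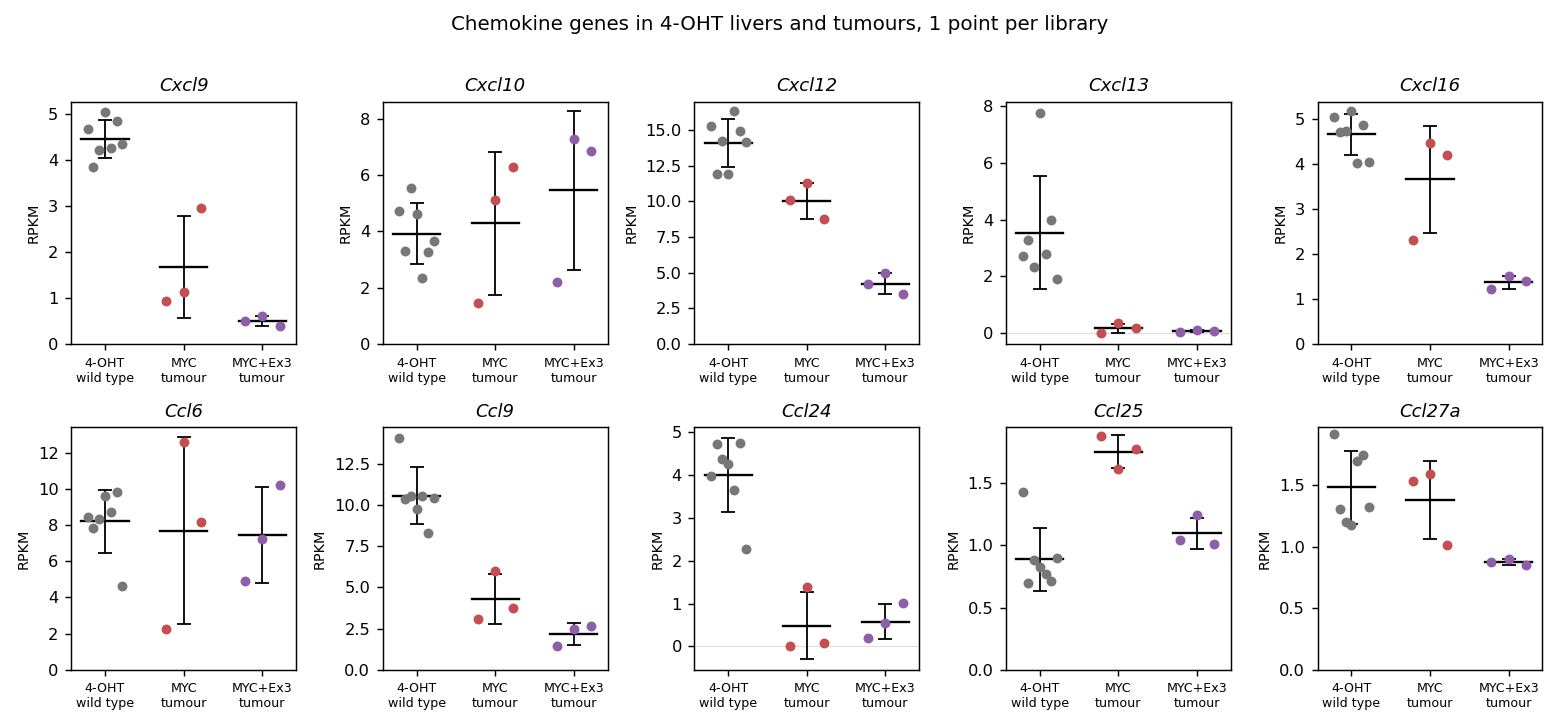
RPKM of 10 chemokine ligand genes in the 13 libraries of the tumour arm, 1 point per library with the mean and SD (7 4-OHT wild-type livers, 3 MYC tumours, 3 MYC+Ex3 tumours). Cxcl12 and Cxcl16 are lowest in the MYC+Ex3 tumours, while Cxcl10 and Ccl6 in tumours overlap the livers.

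Of the CXCR3 ligands, Cxcl9 read 4.68, 3.85, 4.23, 5.05, 4.27, 4.85 and 4.36 RPKM in 4-OHT livers, 0.937, 1.13 and 2.96 RPKM in MYC tumours and 0.493, 0.611 and 0.401 RPKM in MYC+Ex3 tumours. The groups did not overlap, with differences from the livers of -1.11 (SE 0.17, adjusted p = 0.000173) and -1.86 (SE 0.17, adjusted p = 1.11e-06), and the difference between the tumours was -0.76 with an adjusted p of 0.0535. Cxcl10 read 4.72, 3.29, 5.54, 4.60, 2.35, 3.25 and 3.68 RPKM in the livers, 1.44, 5.12 and 6.29 RPKM in MYC tumours and 2.21, 7.30 and 6.86 RPKM in MYC+Ex3 tumours. Each tumour group had values below and above all livers, and neither difference was called (-0.01, adjusted p = 0.979, and 0.30, adjusted p = 0.453). The difference between Cxcl9 and Cxcl10 in these changes was not tested. Cxcl11 was under the filter, at 0.358 to 1.26 RPKM in livers, 0.130 to 0.291 RPKM in MYC and 0 to 0.102 RPKM in MYC+Ex3 tumours, and a filter of 0.25 RPKM in place of 1 called it lower in both (-0.58, adjusted p = 0.00183, and -0.74, adjusted p = 0.000185).

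The adjacent genes Ccl9 and Ccl6 are both CCR1 ligands of macrophages. Ccl9 read 14.1, 10.3, 10.6, 9.78, 10.6, 8.29 and 10.4 RPKM in 4-OHT livers, 3.08, 5.98 and 3.75 RPKM in MYC tumours and 1.43, 2.47 and 2.66 RPKM in MYC+Ex3 tumours. It differed by -1.16 (SE 0.18, adjusted p = 0.000148) and -1.87 (SE 0.18, adjusted p = 1.34e-06), and the tumour genotypes did not overlap but were not called apart (-0.71, adjusted p = 0.0799). Ccl6 read 8.48, 7.83, 8.32, 9.64, 8.74, 9.84 and 4.65 RPKM in livers, 2.27, 12.6 and 8.20 RPKM in MYC tumours and 4.92, 7.23 and 10.2 RPKM in MYC+Ex3 tumours. Its groups overlapped throughout and no difference was called (-0.28, adjusted p = 0.509, and -0.14, adjusted p = 0.729). Whether the changes of Ccl9 and Ccl6 differed was not tested.

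Ccl24, the eosinophil attractant, read 3.97, 4.72, 4.38, 4.25, 3.66, 4.75 and 2.27 RPKM in livers, 0, 1.38 and 0.0840 RPKM in MYC tumours and 0.192, 0.545 and 1.00 RPKM in MYC+Ex3 tumours. All tumours lay below all livers, by -1.84 (SE 0.25, adjusted p = 5.98e-05) and -1.67 (SE 0.25, adjusted p = 6.32e-05). Ccl2 and Ccl5 were close to 1 RPKM in all 3 groups and not called. Ccl2, higher in MYC livers of the short-term arm, had means of 1.35 ± 0.881 RPKM (SD, n = 7) in 4-OHT livers, 1.55 ± 1.19 RPKM (n = 3) in MYC and 1.21 ± 0.325 RPKM (n = 3) in MYC+Ex3 tumours, with adjusted p of 0.811 and 0.932. Ccl5 had 0.912 ± 0.391, 1.08 ± 0.552 and 0.517 ± 0.0937 RPKM.

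Ccl25 was the 1 member of the 13 tested that was called higher in a tumour group, and members under the filter are given below. It was above 1 RPKM in 1 of 7 livers and in all tumours. Ccl25 thus entered the test through tumours, among them the group where it was called higher. It read 1.43, 0.700, 0.885, 0.827, 0.772, 0.71 and 0.894 RPKM in 4-OHT livers, 1.88, 1.61 and 1.77 RPKM in MYC tumours and 1.04, 1.24 and 1.01 RPKM in MYC+Ex3 tumours. MYC tumours were above all livers by 0.55 (SE 0.12, adjusted p = 0.00175). Ccl27a read 1.92, 1.31, 1.20, 1.17, 1.70, 1.74 and 1.32 RPKM in livers, 1.54, 1.59 and 1.01 RPKM in MYC tumours and 0.875, 0.901 and 0.852 RPKM in MYC+Ex3 tumours. MYC+Ex3 tumours were below all livers, by -0.40 (SE 0.12, adjusted p = 0.0134), or -0.34 with an adjusted p of 0.0762 against the S14 livers alone. Cxcl1, the neutrophil attractant, had means of 9.43 ± 4.00 RPKM (SD, n = 7) in livers, 8.34 ± 3.79 RPKM (n = 3) in MYC and 6.76 ± 2.02 RPKM (n = 3) in MYC+Ex3 tumours and was not called (adjusted p = 0.766 and 0.414).

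Below the filter, Cxcl2 stood apart in MYC+Ex3 tumours. It read 0.601, 0.567 and 0.672 RPKM there, or 31 to 40 reads, against 0.0729 to 0.195 RPKM (4 to 13 reads) in livers and 0.0457 to 0.169 RPKM (2 to 12 reads) in MYC tumours. With the filter at 0.25 RPKM it was called higher against livers (0.53, SE 0.06, adjusted p = 9.33e-06) and against MYC tumours (0.53, SE 0.07, adjusted p = 0.000714). Cxcl2 reached 0.25 RPKM in MYC+Ex3 tumours only, so it entered this test through the group where it was called higher. At that filter Ccl4 (0.61, adjusted p = 0.012) and Ccl3 (0.51, adjusted p = 0.0493) were called higher in MYC tumours. Ccl4 rested there on 6, 12 and 39 reads against 1 to 5 per liver, and Ccl3 on 5, 34 and 91 reads against 3 to 15. Both passed that filter mainly through tumours, with values up to 0.253 and 0.268 RPKM in livers.

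Cx3cl1, the membrane-bound ligand of CX3CR1, was also called higher at that filter, in MYC tumours by 0.43 (SE 0.12, adjusted p = 0.0114) and in MYC+Ex3 tumours by 0.30 (SE 0.12, adjusted p = 0.0466). It read 0.253, 0.909 and 0.896 RPKM (19, 111 and 104 reads) in MYC and 0.368, 0.490 and 0.721 RPKM (42, 46 and 70 reads) in MYC+Ex3 tumours, against 0.122 to 0.377 RPKM (12 to 42 reads) in livers. MYC tumours overlapped the livers through 1 tumour, as did MYC+Ex3 tumours. Without any filter the MYC+Ex3 difference was not called (adjusted p = 0.0555). Xcl1 was called lower in MYC+Ex3 tumours (-0.36, SE 0.09, adjusted p = 0.00293), on 0, 0 and 1 read against 3 to 7 per liver. Cx3cl1 passed the filter of 0.25 RPKM mainly through tumours, and Xcl1 and Cxcl11 mainly through livers, the groups where each was high. Calls obtained only with genes below the filter of 1 RPKM are not counted among the results above.

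After median-ratio rescaling the called members of both tumour comparisons kept their calls, and Cxcl16 was added as lower in MYC tumours and Ccl9 as lower in MYC+Ex3 than in MYC tumours. The median of all genes moved by more than 0.1, from 0.19 to -0.02 in MYC and from 0.23 to -0.00 in MYC+Ex3 tumours. The split of all genes went from 4286 higher and 1621 lower to 3051 and 3124 in MYC tumours, from 5011 and 2178 to 3707 and 3622 in MYC+Ex3 tumours, and from 240 and 249 to 261 and 312 between the tumours. Ccl25 remained called as higher. Sex inferred from Xist and Ddx3y was male in 3 of 3 MYC tumours, 2 of 3 MYC+Ex3 tumours and 4 of 7 4-OHT livers.

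**Figure D4:**
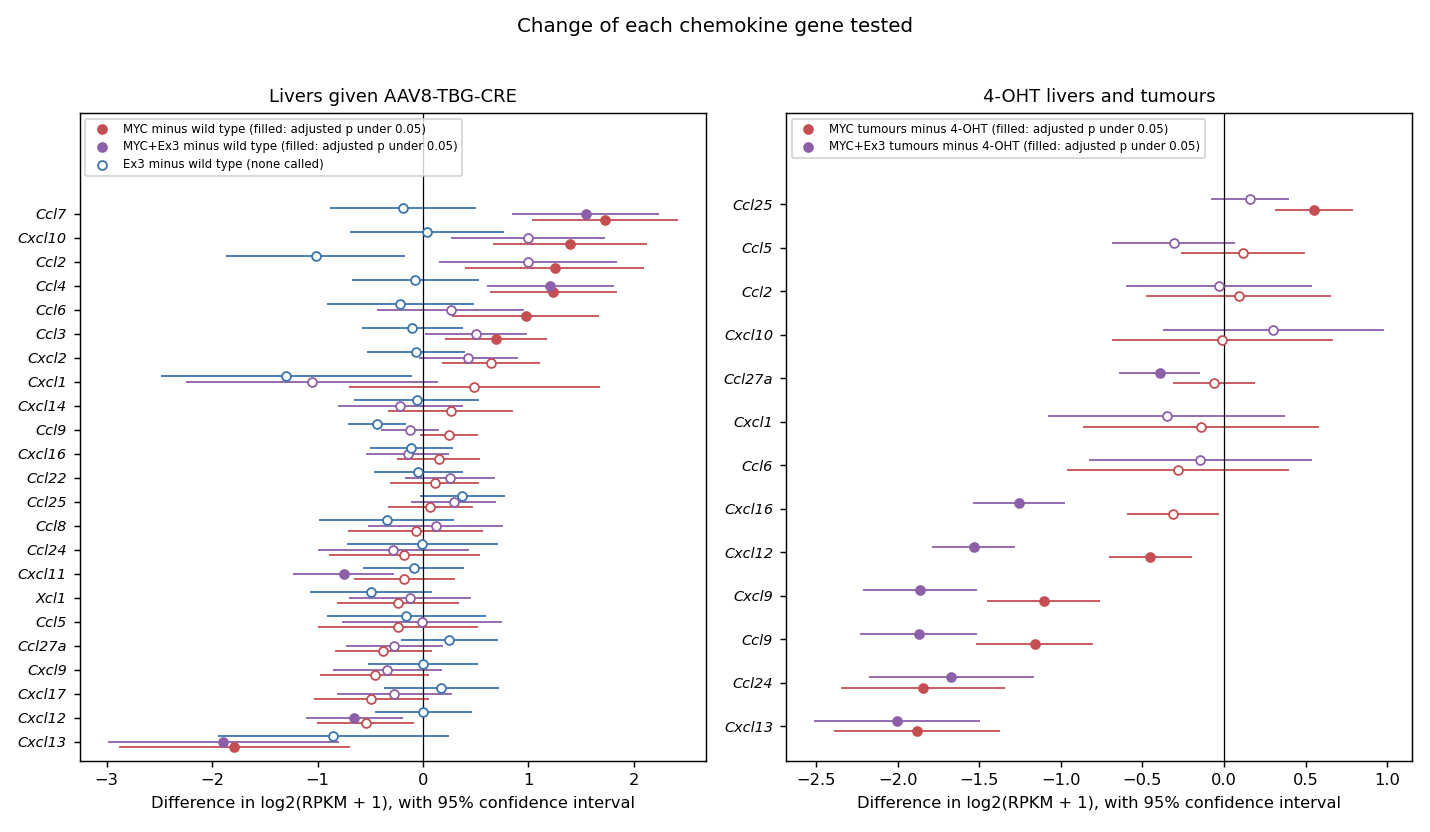
Log2(RPKM + 1) differences of the testable chemokine ligand genes, with approximate 95% confidence intervals set from the SE alone. They are shown for Ex3, MYC and MYC+Ex3 livers minus wild-type livers and for MYC and MYC+Ex3 tumours minus 4-OHT wild-type livers. Filled points passed an adjusted p of 0.05 (limma). The called differences of MYC livers are 6 upward and 1 downward, whereas those of MYC+Ex3 tumours are 7 downward.

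The receptor and inducer genes of the tumour arm changed in both directions. Of 24 receptors 9 were tested. Cxcr4 was higher, at 5.81 ± 2.58 RPKM (SD, n = 3) in MYC and 6.00 ± 1.54 RPKM (n = 3) in MYC+Ex3 tumours against 1.17 ± 0.446 RPKM (n = 7) in 4-OHT livers (1.59, SE 0.25, adjusted p = 0.000157, and 1.69, SE 0.25, adjusted p = 4.85e-05), while its ligand Cxcl12 was lower. Ccr1 (0.63 and 1.14) and Ccrl2 (0.53 and 0.99) were higher in both genotypes and Cxcr2 in MYC+Ex3 tumours (0.31, adjusted p = 0.0113). Ackr4 (-0.78 and -0.86) and Cxcr6, the receptor of Cxcl16 (-0.47 and -0.30), were lower in both. Of 13 inducers 9 were tested, and 4 were lower in MYC and 6 in MYC+Ex3 tumours, with 0 higher. Irf1 was lower in MYC+Ex3 than in MYC tumours (-0.53, adjusted p = 0.044). The platelet ligands Pf4 and Ppbp, CXC chemokines whose symbols lie outside the rule, were higher in MYC+Ex3 tumours (1.49, adjusted p = 0.000254, and 2.55, adjusted p = 0.000435), and Pf4 in MYC tumours (0.95, adjusted p = 0.00916).

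Markers of several cell types were also called in the tumours, lower in some lists and higher in others. Over all genes tested 36.2% were called higher and 13.7% lower in MYC tumours, and 42.3% and 18.4% in MYC+Ex3 tumours. All 9 Kupffer cell markers were lower in MYC tumours and 8 of 9 in MYC+Ex3 tumours, the list summing to 150.4 to 209.5 RPKM in 4-OHT livers, 53.0 to 154.4 RPKM in MYC and 75.3 to 99.0 RPKM in MYC+Ex3 tumours. Endothelial markers were lower for 5 of 7 in each, with sums of 46.4 to 79.3, 24 to 42.9 and 27.4 to 32.4 RPKM. Stellate or fibroblast markers were lower for 3 and 5 of 7 and higher for 2 and 1, with sums of 36.0 to 46.0, 23.6 to 40.7 and 22.0 to 26.9 RPKM. Neutrophil markers were higher for 3 and 6 of 6 tested, with sums of 10.4 to 33.2, 10.9 to 116.8 and 117.7 to 151.7 RPKM, monocyte markers for 2 and 3 of 5, and B cell markers were lower for 0 and 3 of 3 tested. No marker of these lists was at 0 in all libraries of a group. Between the tumour genotypes, where Cxcl12 and Cxcl16 differed, 0 of 9 Kupffer cell, 1 of 7 endothelial (Cdh5) and 1 of 7 stellate or fibroblast markers (Col3a1) were called, all lower with Ex3. The part of changed cell numbers in the tumour results was not tested.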

How the data were processed

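Total RNA of 33 mouse livers and nodules was sequenced as stranded TruSeq libraries, per the labels' protocols. The authors deposited RPKM for 21671 genes, and the submitters' processing notes name TopHat2 2.0.8, TopHat, SAMtools, featureCounts 1.4.5-p1, DESeq2 and the build mm9, without their roles. Beside these, the authors deposited a log2 fold change and an adjusted p-value per comparison of their own, per the file headers. Of these, values are quoted for Cxcl1 and Cxcl10. Their calls differ from those of limma for other members too. Among these, Ccl3 and Ccl6 in MYC livers were called by limma only. Cxcl16 in MYC tumours and Cxcl9 between the tumour genotypes were called lower by the authors only. The table held 0 columns of other samples.

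Whole reads were recovered from the steps of the RPKM values for 100% of genes above 0 (tolerance 0.01 read) and served to give depth and one alternative. Groups come from the titles. Replicate numbers follow record order. Since the labels do not say that samples came from separate animals, p-values measure the spread between samples. The main test was limma 3.58.1 (R 4.3.3) with an empirical Bayes trend on log2(RPKM + 1), two-sided, for genes at 1 RPKM or more in at least 3 libraries, Benjamini-Hochberg adjusted over all genes, with 1 fit for the 20 AAV8-TBG-CRE livers and 1 for the 13 libraries of the tumour arm. Sex was inferred from Xist and Ddx3y. The scripts were checked on simulated data. Promoters come from RefSeq (GRCm38.p6), whose coordinates were not mixed with mm9.

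Every member at 1 RPKM or more in at least 3 libraries of an arm is named, called members are given value by value, and of the other lists only called genes are named, except that some are not reported here. The members and lists were chosen with earlier results of these data known, and Axin2 and Ncl were added as a check of the labels. The receptor list held 24 genes, the inducer list 13, the platelet list 2, and 13 lists held markers of cell types. Alternatives were a pseudocount of 0.1, no filter and a filter at 0.25 RPKM, median-ratio rescaling, voom on recovered reads, a sex covariate, fits of only the groups compared, keratin-free or keratin-bearing libraries, a keratin term, the S14 or S15 livers as titled, and leaving out each library. The comparison of keratin-bearing with keratin-free libraries was added after the data were seen.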

Additional observations from a re-analysis of the deposited data

Results flagged for a closer look

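A value was picked out when it was the highest or lowest of its group of 5 or 7 and its gap to the nearest other value, divided by the range on the log2(RPKM + 1) scale, passed Dixon's 95% critical value. Only combinations of member and group with at least 1 library at 1 RPKM or more were examined. Of these 106 combinations 12 values of 9 members did so. No chance rate can be set beside this number. Genes of low level entered only where a library was high, and some of the values rest on few reads.

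In short-term Ex3 replicate 2, Cxcl5, a neutrophil attractant, stood at 7.889 RPKM (79 reads) against 0 to 0.3749 in the other Ex3 livers, and Ccl20, the CCR6 ligand, at 1.047 RPKM (9 reads) against 0. In MYC+Ex3 livers, replicate 4 had Ccl6 at 63.11 RPKM (others 19.13 to 26.89) and Ccl27a at 2.28 RPKM (others 3.678 to 4.317), and replicate 5 had Ccl11 at 1.741 RPKM (9 reads). In MYC livers, replicate 4 had Ccl24 at 1.879 RPKM (others 5.904 to 7.595) and replicate 5 had Ccl9 at 43.7 RPKM (others 63.47 to 67.82). Ex3 replicate 5 had Ccl9 at 26.82 RPKM (others 39.27 to 42.01), and wild-type replicate 2 had Cxcl17 at 2.658 RPKM (9 reads). Among 4-OHT livers, replicate 7 was lowest for Ccl24 at 2.266 RPKM (others 3.656 to 4.75) and Ccl6 at 4.65 RPKM (others 7.833 to 9.843), and replicate 1 was highest for Ccl25 at 1.432 RPKM (others 0.6999 to 0.8945).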

How the results depend on the processing

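No called member changed direction under any setting run. No paired analysis was possible because the labels give the samples no replicate numbers. The number of members called moved by more than 1.5 times as follows. For MYC against wild-type livers (7) it was 4 without the filter on low values, 4 with a sex covariate, 3 in a fit of only these groups and 3 in keratin-free livers. Leaving out 1 liver gave 3 to 9, with 3 or 4 without wild-type replicate 1, 2 or 3 or MYC replicate 1, 3 or 4. For MYC+Ex3 against wild type (5) it was 3 with a sex covariate and 1 in keratin-bearing livers, and 2 to 6 when 1 liver was left out (3 without wild-type replicate 2, 2 without MYC+Ex3 replicate 2). For MYC+Ex3 against Ex3 (4) it was 2 in keratin-bearing livers and 3 to 6 when 1 liver was left out. In MYC tumours (6) it was 12 without the filter and 10 with a filter at 0.25 RPKM, and in MYC+Ex3 tumours (7) 13 and 11, since more genes were then tested, with 5 to 7 and 7 to 7 when 1 library was left out. Between the tumours (2) it was 1 in a fit of the tumours alone and 2 to 4 when 1 library was left out (4 without MYC tumour replicate 1). For Ex3 against wild type and MYC+Ex3 against MYC it was 0 in all of these. The cause of these shifts was not tested otherwise. Where a group is left with fewer livers, the spread is pooled over the groups of the fit. Among single members, Ccl7 in MYC and MYC+Ex3 livers and Ccl2, Ccl4 and Ccl7 in MYC+Ex3 against Ex3 livers kept their calls in every fit that left out a liver. Depth limits Ccl3, Ccl4, Cxcl2 and the members under 1 RPKM, where a few reads decide a value.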

Other observations

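The short-term Ex3 liver that was high for Cxcl5 and Ccl20 was also the highest of the 20 short-term livers for several genes of bile duct epithelium. Krt19 reached 57.54 RPKM there (478 reads), where the next liver had 2.771 RPKM. Epcam reached 7.057 RPKM against 2.295 RPKM and Krt7 3.335 RPKM against 2.334 RPKM, while Sox9 was highest in another liver. Among the chemokine ligands, Cx3cl1 at 1.42 RPKM and Ccl28 at 1.149 RPKM were highest in the same library, next to 1.15 and 0.6663 RPKM. These values come from 1 library and support no comparison.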
